A study of Homo sapiens with 2 samples.

Results

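NRF2 is a transcription factor that switches on antioxidant and detoxifying enzymes of the cell, and glutathione is a small thiol that many of these enzymes use. The 49 genes examined here are NRF2 and its regulators, its classical targets, and the enzymes that make, reduce and use glutathione, together with peroxiredoxins, superoxide dismutases, aldo-keto reductases and aldehyde dehydrogenases. They were taken by name, from a list drawn up with earlier results of these data known, and every probe set paired with a single gene of the list was included. For 46 of the 49 genes there was such a probe set, out of 19775 genes with one on the array. No probe set was paired with PRDX5, AKR1B1 or AKR1A1 alone, so these are not reported. The RNA came from H322c, an established NSCLC cell line. It was cultured for 4 days either with 1 µM gefitinib, an inhibitor of the EGFR kinase, or with 0.1% DMSO as the control. Each condition was measured on 1 Affymetrix U133 Plus 2.0 array, so there was no replicate and no test was possible. All values describe these 2 arrays, and their number limits the precision.

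In unstressed cells the adaptor KEAP1 holds NRF2, the product of NFE2L2, and feeds it to a ubiquitin ligase. Oxidants and electrophiles modify KEAP1, and NRF2 then accumulates mostly without a change in its own mRNA, pairs with a small MAF protein and binds antioxidant response elements, where the repressor BACH1 competes for the site. Mutations that disable KEAP1 or stabilize NRF2 are known in lung cancer, and they keep the target genes high without stress.

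The deposited values are MAS5 signals, a linear brightness scale on which the arrays had been set to a common mean. Signals under 100 were set to 100, a level called the floor here, and a gene counted as measured if either array gave it a probe set at the floor or brighter. Of the 46 genes, 39 were measured, at 67 of their 85 probe sets. A gene with several probe sets was represented by the brightest, and its other probe sets are given where they differ. The words "at least 2-fold" name the threshold used for counting. Any other fold with "at least" before it had its dimmer signal under the floor and is therefore a bound. A gene was counted as different from 2-fold. The spread between probe sets of the same gene, over probe sets with both signals at the floor or brighter, was an SD of 0.54 in log2 ratio for all 4610 genes with several, and 0.31 for the 14 such genes of this list. It describes the measurement and not the spread between cultures. The epithelial markers EPCAM, CDH1, KRT8, KRT18, KRT19 and CLDN4 were all measured. Of the markers of other cell types, all 4 for leukocytes (PTPRC, CD3E, CD14 and LYZ) stayed below the floor, as did COL1A2, COL3A1, DCN, LUM, CDH5 and ALAS2. Those that reached it were COL1A1 (420.8 under DMSO and 950.2 under gefitinib), PECAM1 (128.4 and 78.0), VWF (under the floor and 496.0) and HBB (110.7 and 57.8), and their part in the results was not tested. In RNA of a whole culture, fewer cells of a type and less RNA per cell cannot be told apart.

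Most genes of the list were within 2-fold of their control signal after gefitinib, as were most of all measured genes. Of the 39 measured genes of the list, 34 were within 2-fold, beside 9036 of all 11223. GSTA4, EPHX1 and GSTK1 were at least 2-fold higher on the gefitinib array, and AKR1B10 and GSTO1 were at least 2-fold lower. The 3 higher genes are 7.69% of those measured, where 13.3% of all 11223 measured genes were at least 2-fold higher. The 2 lower genes are 5.13%, where 6.20% of all measured genes were lower. In either direction the shares were 12.8% for this list and 19.5% for all genes. The median log2 ratio was 0.02 for the list and 0.12 for all measured genes, and 64.1% of the list and 52.2% of all genes had a log2 ratio smaller than 0.5 in size. These shares depend on how the arrays are scaled. With scaling to bacterial spike-in transcripts, 9.42% of all genes were at least 2-fold higher and 9.25% lower, with 2 genes of the list in each direction. With scaling to GAPDH, the shares of all genes were 17.9% and 4.34%, with 4 genes of the list higher and 1 lower. The order of the medians depended on the scaling as well. The list had 0.14 and all genes 0.06 with quantile normalization, and 0.15 and 0.07 with lowess correction.

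**Figure D1:**
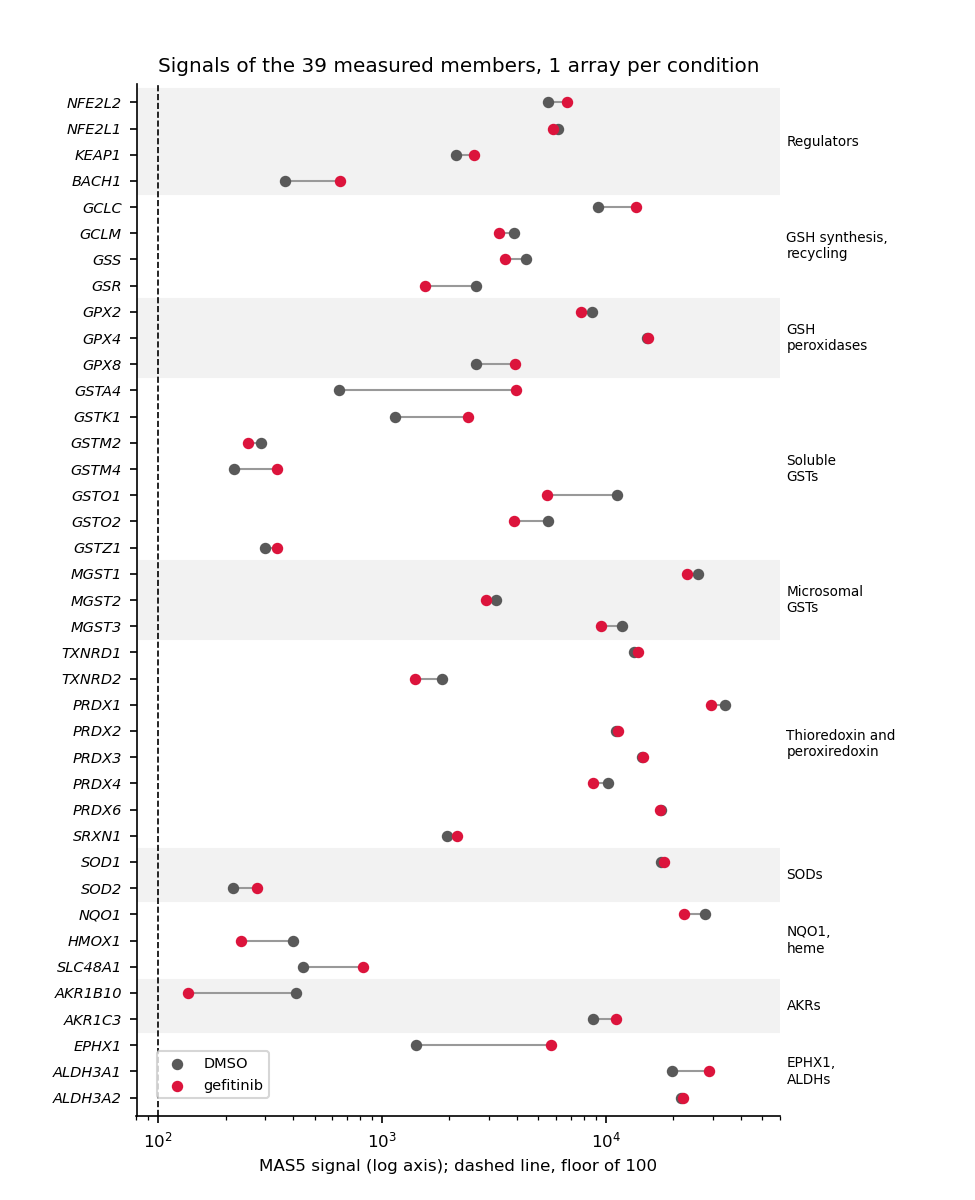
MAS5 signal (horizontal log axis) of the brightest probe set of each of the 39 measured genes under DMSO (grey) and under gefitinib (red), with a single array each and the genes grouped by role. The grey bar joins the signals of a gene, and the widest bars are those of GSTA4, EPHX1 and AKR1B10; for most peroxiredoxins the points lie on top of each other.

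**Figure D2:**
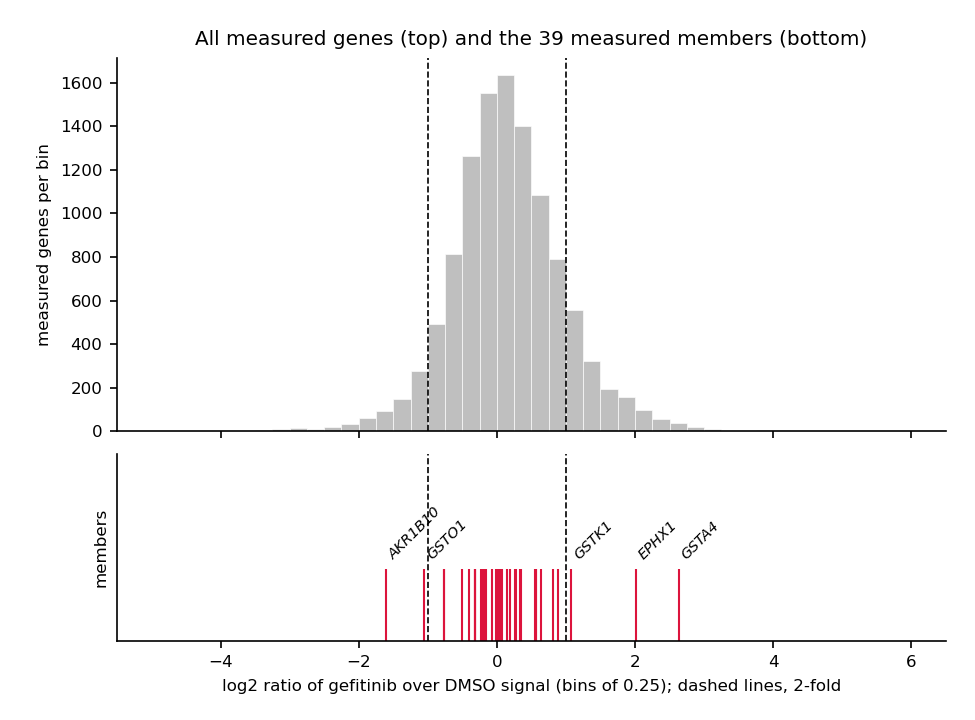
Horizontal axis, log2 ratio of gefitinib over DMSO, for all 11223 measured genes, as the number of genes per bin (top), and for the 39 measured genes of the list, as a line each (bottom). Dashed lines mark 2-fold; 5 genes of the list lie outside them, GSTO1 and GSTK1 close to the lines.

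Among the regulators, NFE2L2 read 5536.8 under DMSO and 6722.2 under gefitinib, 1.21-fold higher (log2 ratio 0.28). A second NFE2L2 probe set, 1567013_at, had 136.0 and 48.3, at least 1.36-fold lower, so the probe sets of this gene differed in direction. KEAP1, the adaptor that marks NRF2 for degradation, had 2139.3 and 2569.4 at its single probe set, 1.20-fold higher. BACH1, which represses the same elements until heme releases it, had 369.2 and 647.6, 1.75-fold higher (log2 ratio 0.81), and was the regulator with the widest difference. NFE2L1, a relative of NRF2 known for inducing proteasome genes, had 6109.9 and 5811.2 at its brightest probe set, and log2 ratios of -0.07, 0.17 and 0.51 over its 3 probe sets. None of the regulators passed 2-fold, under any of the 11 other scalings, floors and probe set rules tried.

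NQO1, a quinone reductase and the most widely used readout of NRF2 activity, was bright on both arrays. Its 210519_s_at read 27803.9 under DMSO and 22245.7 under gefitinib, 1.25-fold lower (log2 ratio -0.32). The other NQO1 probe sets had log2 ratios of -0.54 (17025.7 and 11707.4) and -0.08 (13625.2 and 12857.9), so all 3 were slightly lower with the drug and within 2-fold. HMOX1, which cleaves heme, had 400.4 and 235.2, 1.70-fold lower (log2 ratio -0.77). SLC48A1, a heme transporter of endosomes and lysosomes, was higher at each of its 3 probe sets. Its brightest, 48106_at, had 444.0 and 819.3, 1.85-fold higher, and the others were 1.51-fold and 1.96-fold higher. SLC48A1 passed 2-fold with centring on control probe sets and with GAPDH scaling, and its log2 ratio ran from 0.69 to 1.06 over the scalings.

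Glutathione is made in 2 steps, by the ligase of GCLC (catalytic subunit) and GCLM (modifier subunit) and then by GSS, and GSR returns its oxidized form to the reduced one. The subunits of the first enzyme had log2 ratios of opposite sign. GCLC read 9270.0 under DMSO and 13679.2 under gefitinib at 202923_s_at, 1.48-fold higher, and 7490.1 and 11665.7 at 202922_at, 1.56-fold higher. Another, dim probe set, 1555330_at, had 209.2 and 79.8, at least 2.09-fold lower. GCLM had 3877.4 and 3335.8, 1.16-fold lower, and all 3 of its probe sets had log2 ratios between -0.22 and -0.09. GSS was 1.24-fold and 1.28-fold lower at its pair of probe sets. The probe sets of GSR disagreed in direction. The signal was 2619.9 under DMSO and 1549.1 under gefitinib at 205770_at, 1.69-fold lower, and 1760.3 and 2140.1 at 225609_at, 1.22-fold higher. GGT1, which starts the breakdown of glutathione outside the cell, was below the floor on both arrays (67.1 and 15.2). All 4 measured genes of this group were within 2-fold at the brightest probe set.

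Of the glutathione peroxidases, a family named for enzymes that reduce peroxides at the expense of glutathione, 3 of 5 were measured. None passed 2-fold at its brightest probe set. GPX4, which protects membranes against lipid peroxidation and so against ferroptosis, had almost the same signal on the arrays, 15203.4 under DMSO and 15427.5 under gefitinib (log2 ratio 0.02). GPX2, the epithelial enzyme and an NRF2 target, had 8680.1 and 7710.9, 1.13-fold lower. GPX8, a peroxidase of the endoplasmic reticulum, was 1.48-fold higher at 227628_at (2637.7 and 3913.6) and 2.16-fold higher at the dimmer 228141_at (193.5 and 417.1). The GPX1 probe set (46.1 and 3.8) and the pair for GPX3 did not reach the floor on either array.

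The soluble glutathione transferases, which couple glutathione to electrophiles, held 3 of the 5 differences past 2-fold. Of 10 genes, 7 were measured, with 2 higher (28.6%, beside 13.3% of all measured genes), 1 lower (14.3%, beside 6.20%) and 4 within 2-fold. GSTA4, the alpha-class enzyme that clears the lipid peroxidation product hydroxynonenal, read 642.3 under DMSO and 3982.7 under gefitinib, 6.20-fold higher (log2 ratio 2.63). It ranked 75 from the top of the 11223 measured genes. This rests on 202967_at, since its other probe set, 235405_at, was near the floor (75.5 and 111.4, at least 1.11-fold higher). Averaged over both probe sets, its log2 ratio was 1.39, as a bound. GSTK1, the kappa-class enzyme of mitochondria and peroxisomes, had 1140.9 and 2410.7, 2.11-fold higher, and its log2 ratio was 0.89 with spike-in scaling. GSTO1, an omega-class enzyme that acts as a thiol transferase and dehydroascorbate reductase, was lower at both of its probe sets. The signal of 201470_at was 11274.6 under DMSO and 5448.1 under gefitinib, 2.07-fold lower, and that of 1557915_s_at was 7126.9 and 3549.2, 2.01-fold lower. Its difference was at the edge of 2-fold, with log2 ratios from -1.24 to -0.87 over the scalings, and it was within 2-fold in 4 of the 5 scalings other than the deposited one. GSTO2, the adjacent gene on the chromosome, was 1.42-fold lower at 227163_at (5529.7 and 3886.7) and at least 2.67-fold higher at the dim 229155_at (96.9 and 266.9).

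The remaining soluble transferases were dim. GSTM4 was 1.55-fold and 1.68-fold higher at its pair of probe sets, with no signal above 339.5, and the probe sets of GSTM2 (1.15-fold lower) and GSTZ1 (1.14-fold higher) were within 2-fold. Mu-class transferases are near-identical in sequence, and probe sets ending in _x_at can bind relatives, so the GSTM values are uncertain as to the gene. GSTP1, an abundant transferase in many lung cancers, was below the floor on both arrays (55.3 and 22.5), as were GSTT2 (4.0 and 1.6) and both probe sets of GSTM3. The 3 microsomal transferases were all within 2-fold. MGST1 had 25932.0 under DMSO and 23099.2 under gefitinib, MGST2 3230.3 and 2911.3, and MGST3 11822.6 and 9506.0, which are log2 ratios of -0.17, -0.15 and -0.31. One further MGST1 probe set, 1565162_s_at, was 1.40-fold higher. A further MGST3 probe set near the floor, 233307_x_at, was at least 1.38-fold higher (98.3 and 137.8).

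The thioredoxin branch held no gene past 2-fold. Thioredoxin reductase keeps thioredoxin reduced, peroxiredoxins use it to remove hydrogen peroxide, and sulfiredoxin repairs overoxidized peroxiredoxins. All 8 measured genes had a log2 ratio smaller than 0.5 in size at their brightest probe set, with a median of -0.003 and a range from -0.40 to 0.15. TXNRD1, an NRF2 target, read 13324.7 under DMSO and 13971.8 under gefitinib, 1.05-fold higher. SRXN1, another NRF2 target, had 1943.3 and 2156.2, 1.11-fold higher. The mitochondrial reductase TXNRD2 was 1.32-fold lower, PRDX1 1.15-fold lower and the endoplasmic reticulum enzyme PRDX4 1.17-fold lower. PRDX3, the mitochondrial peroxiredoxin, had 14576.4 and 14627.3. For PRDX2 and PRDX6 the brightest probe set had log2 ratios of 0.03 and -0.01, while their other probe sets were higher, from 0.32 to 0.86 for PRDX2 and 0.69 for PRDX6. The superoxide dismutase SOD1, the cytosolic enzyme, had 17716.2 and 18195.1. SOD2, the mitochondrial enzyme, had 217.0 and 277.6 at 1566342_at, the only probe set paired with SOD2 alone, and SOD3 was below the floor on both arrays.

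**Figure D3:**
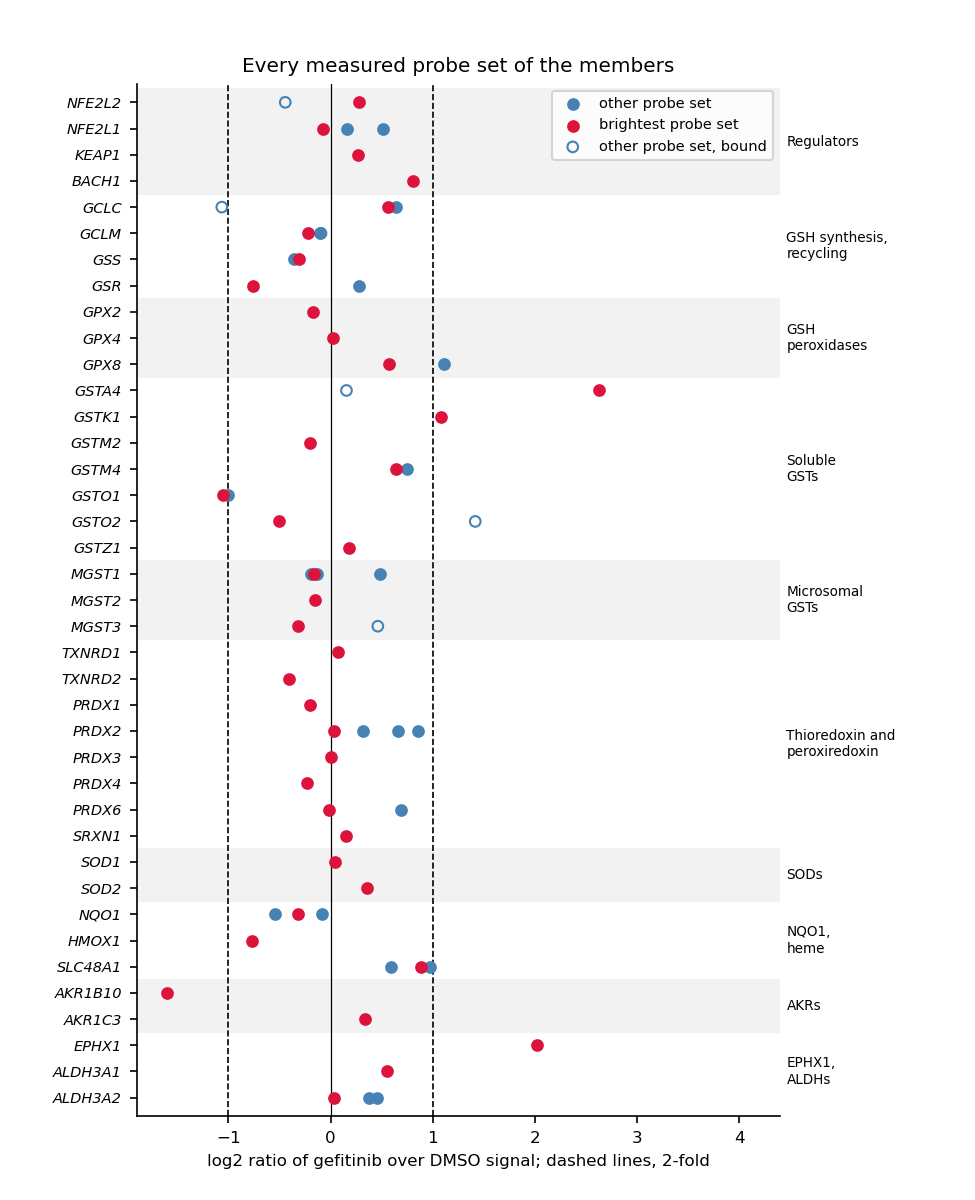
Horizontal axis, log2 ratio of gefitinib over DMSO, at each of the 67 measured probe sets of the 39 measured genes, grouped by role. Red points are the brightest probe set of a gene, blue points its others, and open points have a signal under the floor and are bounds; dashed lines mark 2-fold, and of 18 genes with several measured probe sets 8 have points on either side of 0.

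The drug-metabolizing enzymes of the list held the other 2 differences past 2-fold, in opposite directions. Of the 3 measured genes for epoxide hydrolase and aldehyde dehydrogenases, 1 was higher and 0 were lower. Of the 2 measured aldo-keto reductases, 1 was lower and 0 were higher. Among all measured genes 13.3% were higher and 6.20% lower, and groups this small are too few to compare with these shares. EPHX1, the microsomal epoxide hydrolase, read 1412.0 under DMSO and 5714.1 under gefitinib, 4.05-fold higher (log2 ratio 2.02) at its single probe set. It ranked 247 from the top of all measured genes, and its log2 ratio ran from 1.83 to 2.19 over the scalings. AKR1B10, an aldo-keto reductase that reduces retinal and other aldehydes and is known as an NRF2-dependent marker of lung cancer, went the other way. Its signal was 411.5 under DMSO and 135.3 under gefitinib, 3.04-fold lower (log2 ratio -1.60). The gefitinib signal was near the floor, and with a floor of 200 the log2 ratio was -1.04, as a bound. AKR1C3, a reductase of ketosteroids and prostaglandins and also an NRF2 target, had 8794.3 and 11135.8, 1.27-fold higher, so the 2 measured aldo-keto reductases of the list differed in direction. The aldo-keto reductases measured outside the list were all within 2-fold and positive, as were 6399 of all 11223 measured genes. Their log2 ratios were 0.10 (AKR1C1), 0.31 (AKR1C2), 0.15 (AKR7A2) and 0.45 (AKR7A3). Over the scalings those of AKR1C1 and AKR7A2 reached -0.09 and -0.04. The aldehyde dehydrogenase ALDH3A1 had 19730.3 and 28929.8, 1.47-fold higher. ALDH3A2, the fatty aldehyde dehydrogenase, near it in the genome, had log2 ratios between 0.03 and 0.46 at its 3 probe sets.

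The classical NRF2 targets set side by side therefore gave no common direction. Of NQO1, HMOX1, GCLC, GCLM, TXNRD1 and SRXN1, 3 had a positive and 3 a negative log2 ratio, and the values ran from -0.77 for HMOX1 to 0.56 for GCLC. Over the scalings SRXN1 ran from -0.04 to 0.33 and TXNRD1 from -0.12 to 0.25, so their sign depended on the scaling.

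**Figure D4:**
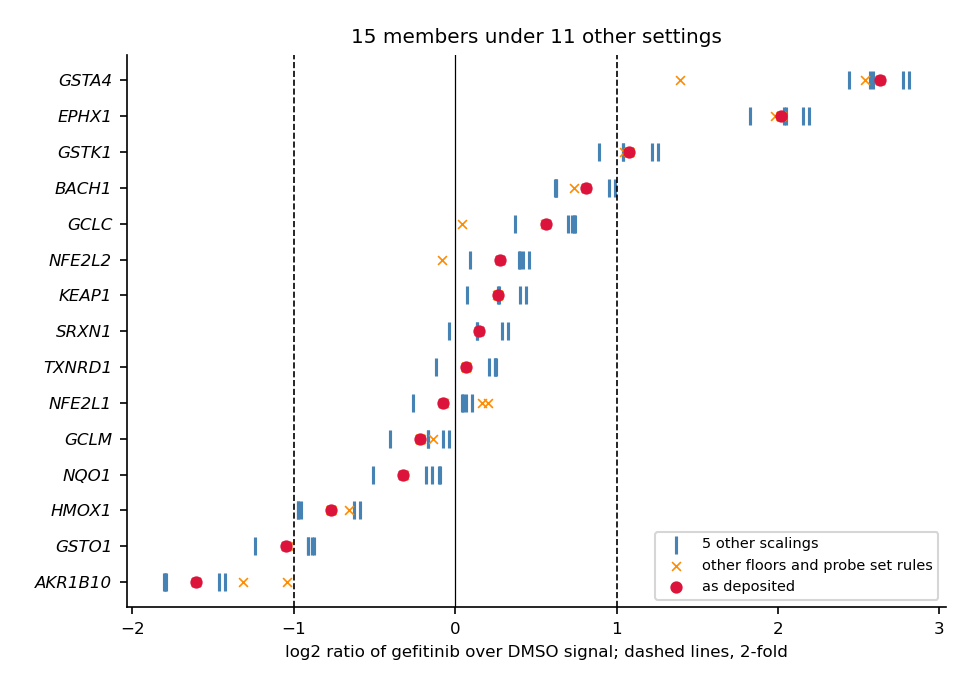
Horizontal axis, log2 ratio of gefitinib over DMSO, of 15 genes, the 5 past 2-fold, the regulators and the classical targets, as deposited (red), under 5 other scalings of the arrays (blue) and under other floors and probe set rules (orange). Dashed lines mark 2-fold; GSTA4, EPHX1 and AKR1B10 stay outside them in every setting shown, and GSTK1 and GSTO1 do not.

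NRF2 acts through antioxidant response elements, so the promoters in RefSeq (GRCh38.p14, from 250 bases before to 50 bases after a gene's annotated start) were searched for the core TGACNNNGC on both strands, where N is any base. A promoter was found for 39 of the 49 genes. The others were GSS, GSR, GSTT2, MGST2, PRDX1, PRDX6, SOD1, HMOX1, AKR1B10 and ALDH3A1. The core occurred in 6 of the 39 (15.4%), close to its share of 13.6% among all 27305 promoters. The 6 genes were GSTA4, GSTO1, GCLM, GPX2, TXNRD1 and GSTP1. Among measured genes with a promoter the share was 16.7% for the list and 15.5% for all genes. Of the 4 genes past 2-fold with a promoter, 2 held the core, and 4 genes are too few to compare. The AP-1 core TGANTCA, which overlaps the antioxidant element in some promoters, was in 1 of the 39 (2.56%), that of GSTP1, where the motifs overlap, and in 7.76% of all promoters. Among measured genes with a promoter it was in 0 of 30 of the list and in 4.35% of all genes. A match is a description of the letters and not a bound site, and a gene without a match may hold an element outside the window.

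Sequence around the core is shown for the genes past 2-fold that held it, GSTA4 (higher) and GSTO1 (lower), and for GCLM and TXNRD1 as classical targets that were within 2-fold. Each is written 5′ to 3′ on the gene's strand, the match in capitals; in GCLM the match reads on the opposite strand. They lie at chr6:52995285-52995323 (GSTA4, minus strand), chr10:104254642-104254704 and chr10:104254701-104254769 (GSTO1, plus strand), chr1:93909431-93909494 (GCLM, minus strand) and chr12:104215650-104215718 (TXNRD1, plus strand).
GSTA4: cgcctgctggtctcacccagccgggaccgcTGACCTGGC
GSTO1, distal: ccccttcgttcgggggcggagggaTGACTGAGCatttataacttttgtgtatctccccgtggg
GSTO1, proximal: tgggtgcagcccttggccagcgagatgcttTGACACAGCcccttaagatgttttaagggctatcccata
GCLM: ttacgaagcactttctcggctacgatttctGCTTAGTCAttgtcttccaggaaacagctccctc
TXNRD1: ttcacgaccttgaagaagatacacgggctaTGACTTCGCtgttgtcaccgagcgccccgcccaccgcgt

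The first base of the match lay 9 bases before the start in GSTA4, 226 and 161 in GSTO1, 34 in GCLM and 99 in TXNRD1. TXNRD1 held a further match on the opposite strand, from 8 bases before the start and reaching it, which is not shown. Genes that held the core were thus found among those higher (6.20-fold for GSTA4), lower (2.07-fold for GSTO1) and near 0 (log2 ratios of -0.22 for GCLM, -0.17 for GPX2 and 0.07 for TXNRD1).

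The pathway also contains genes outside this list. Of 82 such genes, 63 were measured, 9 were at least 2-fold higher (14.3%) and 6 at least 2-fold lower (9.52%), beside 13.3% and 6.20% of all measured genes, and their median log2 ratio was 0.10. Among the partners of NRF2, the small MAF protein MAFF was lower at both of its probe sets. Its signal was 5798.0 under DMSO and 1096.8 under gefitinib at 36711_at, 5.29-fold lower, and 1865.4 and 287.5 at 205193_at. NFE2L3, a further relative of NRF2, had 115.5 and 437.9, 3.79-fold higher. The DMSO signal was near the floor, and with a floor of 200 the log2 ratio was 1.13, as a bound, in place of 1.92. BTRC, a ubiquitin ligase adaptor that can also target NRF2, had 206.3 and 527.6, 2.56-fold higher, at its brightest probe set, but its probe sets differed in direction and the log2 ratio was 0.28 as their mean.

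The glutaredoxins, some of which use glutathione to reduce protein disulfides, held 2 genes at least 2-fold lower among 4 measured, where 6.20% of all measured genes were lower. GLRX read 5233.2 under DMSO and 1714.8 under gefitinib at 206662_at, 3.05-fold lower, and 1627.2 and 461.7 at 209276_s_at. GLRX2, the mitochondrial form, had 1541.3 and 685.6, 2.25-fold lower, and its log2 ratio was -0.99 with GAPDH scaling. GLRX3 (log2 ratio -0.81) and GLRX5 (-0.27) were within 2-fold. The 4 log2 ratios were negative, as were those of 4823 of all 11223 measured genes. SESN3, a stress protein and FOXO target, was 6.76-fold higher (383.2 and 2589.9). Its 2 further measured probe sets had log2 ratios of 0.85 and, as a bound, 0.20 (27.2 and 114.6). The mean over its probe sets was 1.27, which is therefore also a bound.

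Enzymes of glutathione turnover differed in direction. GGT6, of the gamma-glutamyltransferase family, had 109.7 under DMSO and 613.0 under gefitinib, 5.59-fold higher (log2 ratio 2.48). Its DMSO signal was near the floor, and with a floor of 200 the log2 ratio was 1.62, as a bound. CHAC2, which degrades glutathione in the cytosol, had 740.0 and 244.7, 3.02-fold lower. SLC7A11, the cystine carrier that limits glutathione synthesis, was 3327.9 and 4174.8 at 209921_at (log2 ratio 0.33) and 2165.0 and 3082.7 at 217678_at (0.51), but 759.6 and 191.6 at 207528_s_at (-1.99). PTGES, the prostaglandin synthase related to the microsomal transferases, was 2.66-fold lower (4626.6 and 1739.9). GSTA1, another alpha-class transferase, had 2.0 and 494.9 at 203924_at, at least 4.95-fold higher. Its other probe set, 215766_at, had 223.3 and 194.7, and it became the brighter of the pair with a floor of 50, so that the log2 ratio was then -0.20.

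The export pumps, which carry glutathione conjugates and other organic anions, also split, with 2 of 5 higher, 1 lower and 2 within 2-fold, where the shares of all measured genes were 13.3% higher and 6.20% lower. ABCC5 had 323.0 under DMSO and 1208.7 under gefitinib, 3.74-fold higher, ABCC4 had 687.6 and 1521.3, 2.21-fold higher, and ABCC2, an NRF2 target, had 663.3 and 286.1, 2.32-fold lower. ABCC4 was within 2-fold with the mean over probe sets (log2 ratio 0.70, as a bound) and with spike-in scaling (0.96). ABCC1 had 1328.2 and 2595.5, 1.95-fold higher, and was 1.86-fold higher at its other probe set, and it passed 2-fold with centring on control probe sets and with GAPDH scaling. ABCC3 had 922.0 and 737.1, 1.25-fold lower, at its brightest probe set, but was 3.06-fold and 2.24-fold lower at its other measured probe sets, and its log2 ratio as their mean was -1.03. FECH, which completes heme, was 2.01-fold higher (1331.9 and 2679.1), at the edge of 2-fold (log2 ratio 0.82 with spike-in scaling). Its other probe sets were higher as well, with log2 ratios of 1.35 and, as a bound, 1.78. ALDH1A1, which oxidizes retinal, had 1.9 and 339.0, at least 3.39-fold higher, and its log2 ratio with a floor of 200 was 0.76, a bound below 2-fold. The 5 measured enzymes that supply NADPH (PGD, TKT, TALDO1, ME1 and IDH1) had log2 ratios between -0.40 and 0.30 at their brightest probe set. Dimmer probe sets lay outside this range, with -0.92 for TKT at 228205_at (1503.1 and 793.0) and 0.55 for IDH1 at 1555037_a_at (7387.8 and 10849.0).

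**Figure D5:**
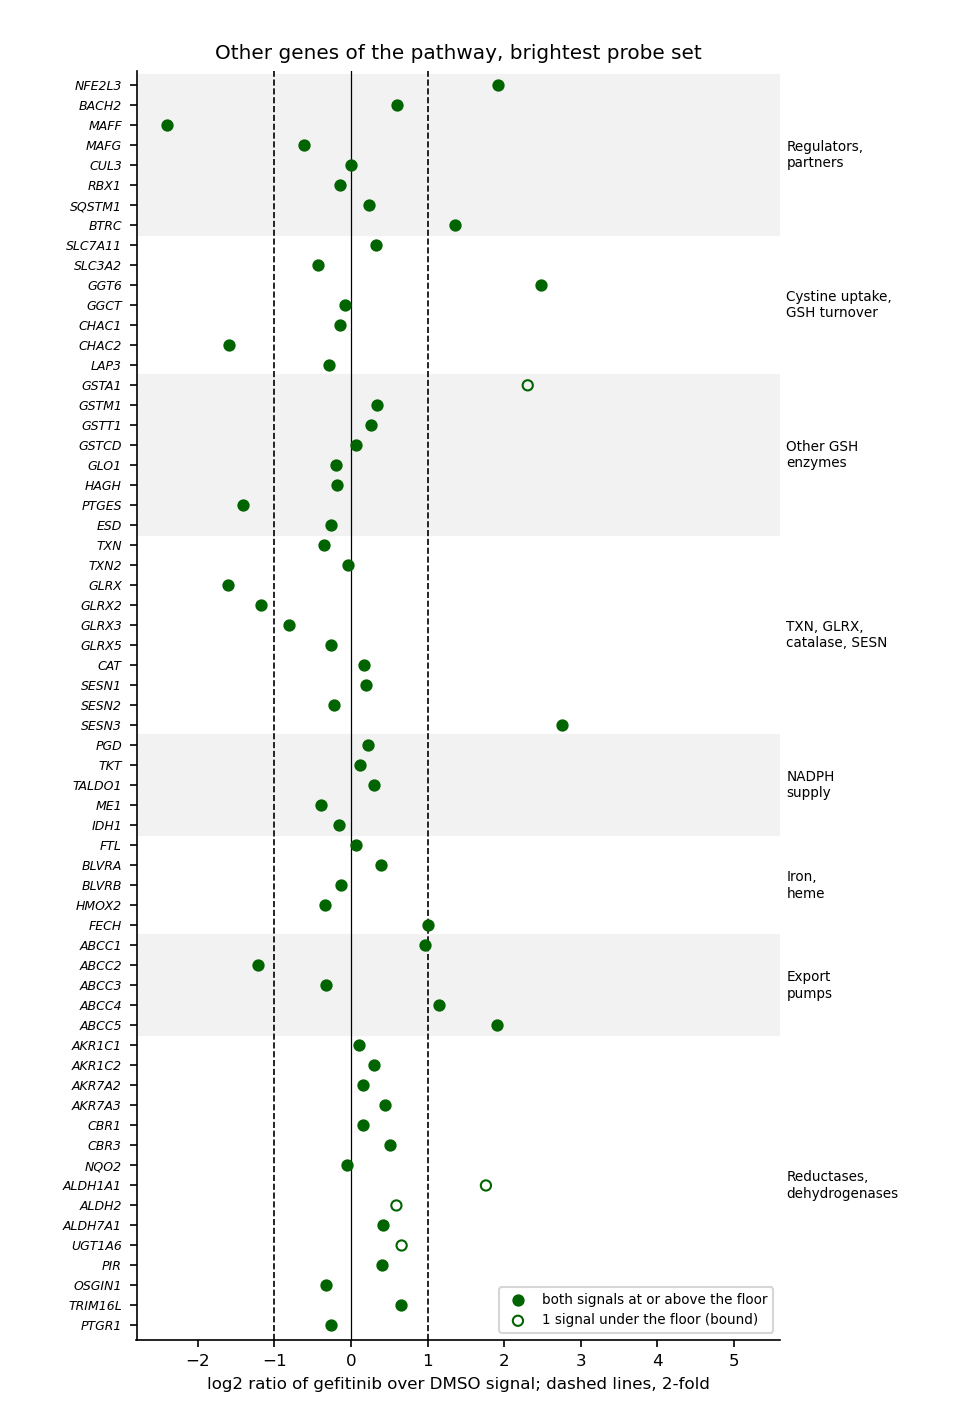
Horizontal axis, log2 ratio of gefitinib over DMSO, at the brightest probe set of 63 measured pathway genes outside the list, grouped by role. Open points have a signal under the floor and are bounds, and dashed lines mark 2-fold; SESN3 (2.76) and GGT6 (2.48) are at the right end and MAFF (-2.40) at the left.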

How the data were processed

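Total RNA of H322c cells was hybridized to Affymetrix U133 Plus 2.0 arrays, 1 array per condition, and the samples were grouped by the treatment in their labels. The authors deposited signal intensities on a linear scale, for 54675 probe sets. The submitters' processing notes name MAS5 with no version. The 2% trimmed mean was 500 on both arrays. This common scaling removes any shift shared by most transcripts. The platform annotation paired 41097 probe sets with 1 gene, and symbols were updated through gene identifiers of GRCh38.p14 (41043 matched). Probe sets with several genes or none were not used.

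From the deposited intensities, log2 ratios of gefitinib over DMSO were computed with a floor of 100, and a gene took the value of its brightest probe set (mean log2 signal over both arrays). No p-value was computed, and depth does not apply to arrays. The genes and lists were chosen with earlier results of these data known. Both signals are given for genes past 2-fold, the regulators and 6 classical targets. Other pathway genes were to be named if past 2-fold. Items outside these rules were named after their values were seen. These were SLC7A11, ABCC1, ABCC3, GLRX3, GLRX5, PGD, TKT, TALDO1, ME1, IDH1, AKR1C1, AKR1C2, AKR7A2, AKR7A3 and the sequences of GCLM and TXNRD1. The alternatives were 5 other scalings, other floors and probe set rules, and fold thresholds of 1.5 and 3. The procedure was tested on simulated data. The simulated second array was the DMSO array with added noise, and known folds were set only in brighter genes. This checked the computation. It does not show how firm the 2-fold differences are, in dim genes or between cultures. The work used Python 3.11.15 (matplotlib 3.10.9, statsmodels 0.14.6, pandas 2.3.3, numpy 2.4.6, scipy 1.17.1).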

Additional observations from a re-analysis of the deposited data

How the results depend on the processing

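The number of genes of the list at least 2-fold lower was 2 as deposited and 1 with quantile normalization, centring on control probe sets, GAPDH scaling, lowess correction or a threshold of 3-fold, where GSTO1 was no longer counted. With a threshold of 1.5-fold it was 4 and the number higher was 6 in place of 3, of 39 measured. The number of other pathway genes higher was then 14 in place of 9, of 63 measured. At 1.5-fold, 26.4% of all measured genes were higher and 14.9% lower. With a threshold of 3-fold, 3 other pathway genes were lower in place of 6, where 4.78% of all measured genes were higher and 2.05% lower. The number of listed genes higher was between 2 and 4 over the scalings, where 9.42% to 17.9% of all genes were higher and 4.34% to 9.25% lower. Centring on control probe sets, GAPDH scaling and spike-in scaling moved the median log2 ratio of all genes by 0.13, 0.17 and -0.18. The median of the list minus that of all genes ran from -0.11 to 0.08 over all scalings, floors and probe set rules. It was positive with quantile normalization and lowess correction and negative in the other settings. Of 165 values of 15 named genes under these alternatives, 163 moved by less than the spread between probe sets of all genes (SD 0.54); the others were GSTA4 with the mean over probe sets (1.39) and AKR1B10 with a floor of 200 (-1.04). Against the smaller spread of the list's own probe sets (SD 0.31), 161 did, since GCLC (0.05 in place of 0.56) and NFE2L2 (-0.08 in place of 0.28) also moved by more with the mean over probe sets. The means of GSTA4, GCLC and NFE2L2 include a bound. Much of this tally was fixed in advance. Centring on control probe sets, GAPDH scaling and spike-in scaling each shifted all genes alike, by much less than 0.54. Other floors left genes brighter than them unchanged, and the mean could not move a gene with a single measured probe set. The tally therefore does not show how firm the values are. None of the 5 genes past 2-fold changed sign. No paired analysis was possible because each condition had 1 array. Differences below the floor were not detectable.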
